A study of Mus musculus with 4 samples.

Results

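Skeletal muscle genes were examined in liver RNA of mice infused with short-chain fatty acids into the cecum. The group consists of 41 genes of the contractile apparatus, calcium handling and energy metabolism of muscle fibres, out of 18820 genes measured. They were taken from a fixed list of symbols. Every listed gene was found on the array through a probe set that the platform annotation assigns to that symbol only. The list was drawn up with the values of all 4 pools known, so the levels and ratios of its genes below are a description and support nothing by themselves.

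The animals of all groups were male C57Bl/6J mice, 16 to 17 weeks old, kept for 6 weeks on semi-synthetic food with palm oil and fitted with a permanent catheter in the cecum. After a morning fast, conscious mice received an infusion of 0.2 ml/h for 6 h. The control group received phosphate-buffered saline. The other groups received sodium [1-13C]acetate, sodium [2-13C]propionate or sodium [2,4-13C2]butyrate, each at 0.3 M and 2.4 mmol/h/kg. The mice were killed by cardiac puncture and the livers were freeze-clamped. Equal amounts of RNA of 6 control, 6 acetate, 6 propionate and 4 butyrate mice were pooled, and each pool was hybridized to 1 array. One mouse thus made up 16.7% of the control, acetate and propionate pools and 25% of the butyrate pool. The design has no replicates, so no value below has a replicate check and no p-value is given.

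Muscle fibres contract when calcium released from the sarcoplasmic reticulum binds troponin on the thin actin filament and lets myosin of the thick filament pull on it. Fast and slow fibres use different isoforms of myosin, troponin and the calcium pump, encoded by different genes. Hepatocytes chiefly use non-muscle myosins, cytoplasmic actins and liver enzymes in their place. In bulk RNA of an organ, fewer cells of a type and less RNA per cell cannot be told apart. In pooled RNA, a difference in all mice of a pool and a difference in 1 of them cannot be told apart either.

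Levels are log2 expression values, so a difference of 1 is a doubling, and they are compared only within a gene. A level floor was set at 5.55, the median over all genes of the mean over the 4 arrays. A lower mark of background was the 95th percentile of 1157 olfactory and vomeronasal receptor genes, best known from sensory cells of the nose. It lay between 4.15 and 4.18 in the 4 arrays. The median of all probe sets lay between 5.11 and 5.12 in every array. The tissue label was borne out by hepatocyte genes, of which 11 were measured: their mean level was 13.01 in control, 13.00 with acetate, 13.02 with propionate and 13.01 with butyrate. Albumin (Alb) stood at 13.32, 13.33, 13.38 and 13.36, in the order control, acetate, propionate and butyrate, which is kept for all series of 4 levels.

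The promoters of the muscle genes that differed most are shown because those genes shared one pattern over the pools. Each sequence covers the 250 bases before the RefSeq start site (GRCm38.p6), 5′ to 3′ on the gene's strand. They belong to the 6 genes with the largest distance between the butyrate pool and the lowest other pool among those with 1 start site in the table. Capitals mark matches on either strand to the E-box CANNTG, bound by MyoD-family factors, the MEF2 box, the CArG box of serum response factor, and the TATA box TATAAA.
Myl1 (chr1:66945057-66945306, minus strand): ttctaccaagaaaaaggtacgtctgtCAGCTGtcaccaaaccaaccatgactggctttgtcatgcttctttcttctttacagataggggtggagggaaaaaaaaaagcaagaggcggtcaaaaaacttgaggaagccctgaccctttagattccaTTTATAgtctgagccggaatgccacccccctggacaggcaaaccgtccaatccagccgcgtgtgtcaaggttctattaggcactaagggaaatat
Atp2a1 (chr7:126463074-126463323, minus strand): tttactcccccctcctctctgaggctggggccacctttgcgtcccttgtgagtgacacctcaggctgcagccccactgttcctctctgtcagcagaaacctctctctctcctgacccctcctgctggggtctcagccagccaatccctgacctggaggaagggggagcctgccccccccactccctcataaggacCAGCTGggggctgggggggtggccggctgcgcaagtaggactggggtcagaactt
Acta1 (chr8:123894776-123895025, minus strand): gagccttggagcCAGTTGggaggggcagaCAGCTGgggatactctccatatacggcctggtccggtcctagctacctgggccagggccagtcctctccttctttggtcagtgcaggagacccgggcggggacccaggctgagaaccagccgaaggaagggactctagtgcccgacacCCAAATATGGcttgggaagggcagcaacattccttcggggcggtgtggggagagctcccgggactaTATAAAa
Myh2 (chr11:67170777-67171026, plus strand): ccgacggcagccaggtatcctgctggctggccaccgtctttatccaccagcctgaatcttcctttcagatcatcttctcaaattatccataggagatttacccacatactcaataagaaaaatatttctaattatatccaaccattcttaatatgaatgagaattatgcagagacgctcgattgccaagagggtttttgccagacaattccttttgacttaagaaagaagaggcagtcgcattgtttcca
Fabp3 (chr4:130308488-130308737, plus strand): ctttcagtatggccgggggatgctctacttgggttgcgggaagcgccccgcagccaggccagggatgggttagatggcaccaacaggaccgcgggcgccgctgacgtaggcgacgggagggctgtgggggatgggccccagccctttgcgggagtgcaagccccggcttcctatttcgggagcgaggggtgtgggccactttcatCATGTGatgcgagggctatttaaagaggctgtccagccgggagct
Myh1 (chr11:67199852-67200101, plus strand): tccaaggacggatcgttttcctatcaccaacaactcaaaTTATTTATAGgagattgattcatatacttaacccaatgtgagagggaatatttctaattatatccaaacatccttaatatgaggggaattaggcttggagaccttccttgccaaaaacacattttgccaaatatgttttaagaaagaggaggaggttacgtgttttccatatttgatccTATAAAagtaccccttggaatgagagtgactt
In these windows Myl1, which encodes a myosin light chain of fast fibres, held 1 E-box starting 224 bases before the start site and a TATA match at 95. The window of the fast calcium pump gene Atp2a1 held 1 E-box at 55, and that of Fabp3, a fatty acid binding protein of muscle, 1 at 45. Acta1, skeletal alpha-actin, held E-boxes at 238 and 221, the CArG box at 73 and a TATA match at 7. The fast myosin gene Myh2 held none of these letters, and its neighbour Myh1 held a MEF2 box at 211, overlapping a TATA match at 208, and a second TATA match at 32. Promoters were listed for 33 of the 41 genes. An E-box was present for 28 of them (84.8%), against 69.3% of all 27025 genes in the table. The MEF2 box was present for 4 (12.1% against 3.42%), the CArG box for 4 (12.1% against 1.62%) and TATAAA for 6 (18.2% against 14.3%). These are matches of letters and not shown to be bound sites.

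As a group, the muscle genes stood at similar levels in 3 pools and lower in the butyrate pool. Their mean log2 level was 5.98 in control, 5.96 with acetate, 6.07 with propionate and 4.80 with butyrate. The butyrate pool held the lowest of the 4 levels for 40 of 41 genes, and the exception was Csrp3. Among all 18820 genes, 26.8% were lowest in that pool. For 36 of the 41, the distance from the lowest other pool to butyrate exceeded the whole range of the control, acetate and propionate pools, which held for 7.41% of all genes. The median distance was 0.84 and the median range of the other pools 0.27.

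**Figure D1:**
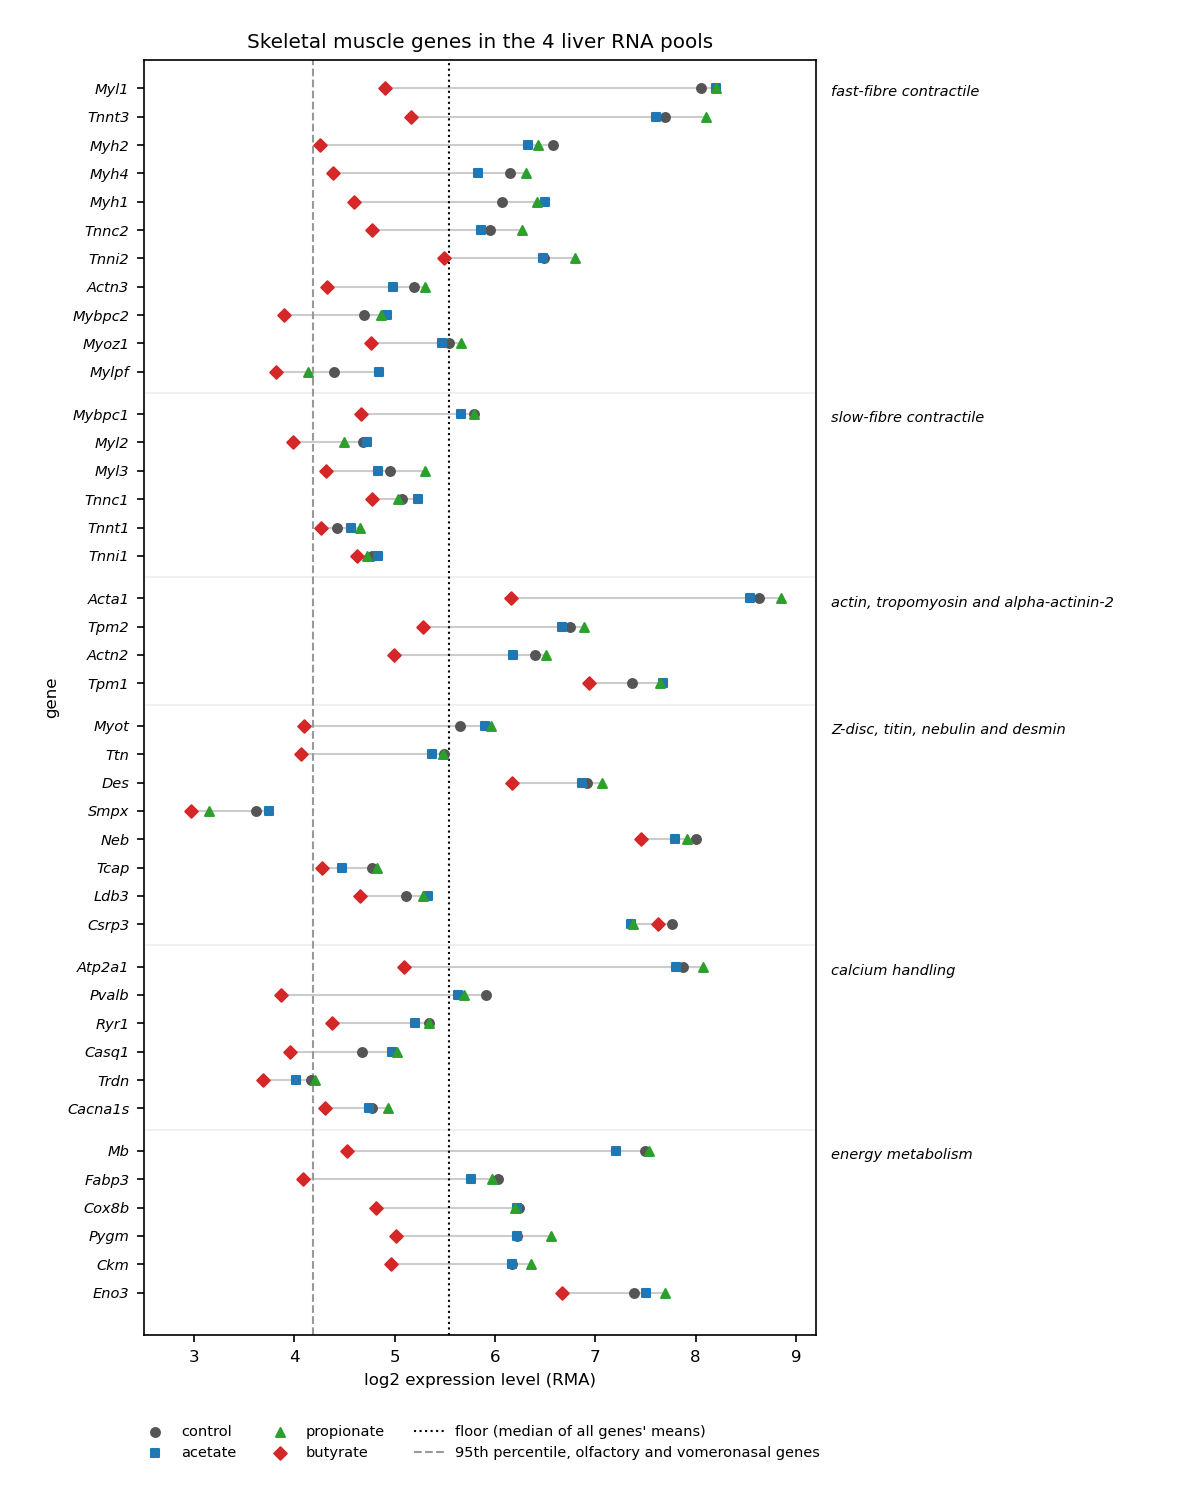
Log2 expression level of each of the 41 skeletal muscle genes (rows, grouped by role and ordered by ratio) in the control, acetate, propionate and butyrate pools, 1 array each; the dotted line is the level floor of 5.55 and the dashed line the background mark of 4.18. The butyrate point lies leftmost for 40 genes, and that of Csrp3 lies between the others.

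Counted against control at 1.5-fold (0.58 on the log2 scale), 30 of the 41 genes were lower with butyrate and none higher. Over all 18820 genes, 0.616% were lower and 0.728% higher by that fold. Of the 30 genes, 20 were at least 2-fold lower and 7 more than 4-fold. Counted from the lowest ratio among all 18820 genes, the last of the 20, Tnni2, had rank 37. The last of the 7, Pvalb, had rank 10. The median log2 ratio of the muscle genes was -0.97, against -0.0029 over all genes. With acetate and propionate no muscle gene passed 1.5-fold in either direction, where the shares of all genes were 0.494% lower and 0.696% higher with acetate and 0.489% and 0.776% with propionate. The median log2 ratios were -0.070 with acetate and 0.14 with propionate. The 3 comparisons share the control pool, and the butyrate ratios were among the values by which the genes were chosen.

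The butyrate pool was also below the pools of the other acids. The acids were infused at the same molar rate. The butyrate pool lay at least 1.5-fold below the acetate pool for 32 genes (all genes 0.956%) and below the propionate pool for 31 (all genes 0.845%). The median log2 ratios were -1.01 and -1.06. Between propionate and acetate the median was 0.13, and 2 genes, Mylpf and Smpx, lay at least 1.5-fold lower with propionate (all genes 0.213%) and none higher (all genes 0.383%). Both rest on background levels: Smpx lay under the background mark in both of these pools and Mylpf with propionate. The propionate pool held the highest level for 22 muscle genes, acetate for 10, control for 9 and butyrate for none.

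**Figure D2:**
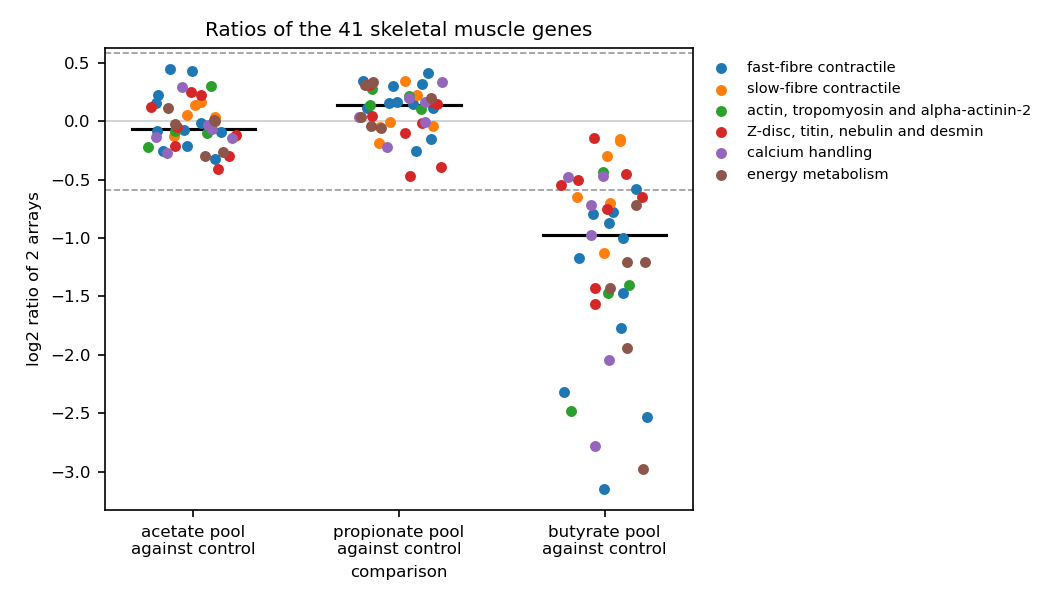
Log2 ratio of each acid pool against the control pool for the 41 skeletal muscle genes, 1 point per gene coloured by role, with the median as a black bar and 1.5-fold as dashed lines. Acetate and propionate points stay within 1.5-fold, and 30 butyrate points lie below it.

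Genes of fast fibres, which contract quickly and tire early, included the gene with the lowest ratio, Myl1. Of 11, 10 were at least 1.5-fold below control with butyrate, and their median log2 ratio was -1.17. Myl1 had log2 levels of 8.05, 8.21, 8.20 and 4.90, which is 8.87-fold lower with butyrate. Only the butyrate pool was low, and the other pools lay within 0.16 of one another. Fast troponin T (Tnnt3) stood at 7.69, 7.60, 8.11 and 5.16, highest with propionate and 5.79-fold below control with butyrate. The troponin subunits that inhibit contraction and bind calcium in fast fibres, Tnni2 and Tnnc2, gave smaller ratios. Levels of Tnni2 were 6.49, 6.48, 6.79 and 5.49, a 2.00-fold difference. For Tnnc2 they were 5.95, 5.86, 6.27 and 4.78, a 2.25-fold difference. A further probe set annotated to Tnnc2 and another gene was left out, and with it Tnnc2 was at a log2 ratio of -0.17.

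The 3 adult fast myosin heavy chains, the motor proteins themselves, are neighbours in the genome and similar in sequence, so short probes may not separate them. Myh2 stood at 6.58, 6.33, 6.43 and 4.26, 4.99-fold lower with butyrate than in control. Levels of Myh4 were 6.15, 5.83, 6.31 and 4.39 (3.40-fold) and those of Myh1 6.07, 6.50, 6.42 and 4.60 (2.77-fold). In each the butyrate pool stood apart and the other 3 overlapped in no fixed order: Myh2 was highest in control, Myh4 with propionate and Myh1 with acetate. Actn3, the alpha-actinin that anchors thin filaments in fast fibres, was at 5.19, 4.98, 5.30 and 4.32. Myoz1, a calcineurin-binding Z-disc protein, was at 5.54, 5.47, 5.66 and 4.77 and the fast myosin binding protein Mybpc2 at 4.69, 4.92, 4.86 and 3.90. These 3 lay 1.72-fold to 1.83-fold below control. Mylpf, the regulatory light chain of fast myosin, was at 4.39, 4.84, 4.14 and 3.81. It was below the background mark with propionate and butyrate, was highest with acetate, and missed the 1.5-fold mark at 1.49-fold.

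Slow-fibre genes had smaller ratios. Of 6, 3 were at least 1.5-fold below control with butyrate and the median log2 ratio was -0.47, but none had a mean level at or above the floor. Mybpc1, the slow myosin binding protein, had levels of 5.79, 5.66, 5.79 and 4.67 and was 2.18-fold lower. The slow or ventricular light chains Myl2 (4.68, 4.72, 4.50 and 3.98) and Myl3 (4.96, 4.83, 5.30 and 4.31) were 1.63-fold and 1.56-fold lower. The slow troponins did not reach 1.5-fold. Tnnc1 was at 5.07, 5.24, 5.03 and 4.78, Tnnt1 at 4.43, 4.56, 4.66 and 4.26 and Tnni1 at 4.77, 4.83, 4.73 and 4.62. For Tnnt1 the distance to butyrate was below the range of the other 3 pools.

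Of 4 genes of actin, tropomyosin and alpha-actinin, 3 were at least 1.5-fold lower with butyrate. Acta1 had levels of 8.64, 8.54, 8.85 and 6.16 and stayed above the floor in all pools, although it was 5.57-fold lower with butyrate than in control. Tpm2, beta-tropomyosin, was at 6.75, 6.67, 6.89 and 5.28. Actn2, the alpha-actinin of heart and skeletal Z-discs, was at 6.40, 6.18, 6.50 and 4.99. These were 2.77-fold and 2.65-fold lower. Tpm1, a tropomyosin that many other cells also make, was at 7.37, 7.67, 7.65 and 6.94, 1.35-fold lower with butyrate and highest with acetate.

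Of 8 structural genes of the sarcomere and Z-disc, 4 were at least 1.5-fold below control with butyrate, and the ratios ran from 1.11-fold to 2.95-fold. Titin (Ttn), the molecular spring, had levels of 5.49, 5.37, 5.48 and 4.06, a 2.69-fold difference. Myotilin (Myot), which crosslinks actin at the Z-disc, was at 5.66, 5.90, 5.96 and 4.09, a 2.95-fold difference. Desmin (Des), the intermediate filament of all muscle types and of stellate cells, was at 6.92, 6.87, 7.07 and 6.17 and was 1.68-fold lower. Nebulin (Neb), the ruler of the thin filament, was at 8.01, 7.80, 7.91 and 7.46, 1.46-fold lower and above the floor in each pool. The titin cap Tcap (4.78, 4.48, 4.82 and 4.27) and the Z-disc protein Ldb3 (5.11, 5.33, 5.28 and 4.66) lay 1.42-fold and 1.37-fold below control. Smpx was at 3.62, 3.74, 3.15 and 2.97, below the background mark in all pools. Csrp3, muscle LIM protein, was at 7.77, 7.36, 7.37 and 7.62. It is the gene that did not follow the others: control was highest, butyrate second, and acetate and propionate lowest, all within 0.41.

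Of 6 calcium-handling genes, 4 were at least 1.5-fold lower with butyrate. Atp2a1, which pumps calcium back into the sarcoplasmic reticulum of fast fibres, had levels of 7.87, 7.80, 8.07 and 5.09, a 6.85-fold difference. Parvalbumin (Pvalb), the soluble calcium buffer of fast fibres, was at 5.90, 5.63, 5.69 and 3.87, 4.11-fold lower and below the background mark with butyrate. Ryr1, the calcium release channel, was at 5.34, 5.21, 5.34 and 4.37, and Casq1, which stores calcium in the reticulum, was at 4.68, 4.97, 5.02 and 3.96. They were 1.96-fold and 1.65-fold lower. The voltage sensor Cacna1s (4.77, 4.74, 4.93 and 4.30) and triadin, Trdn (4.16, 4.02, 4.20 and 3.69), did not reach 1.5-fold.

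All 6 genes of energy metabolism were at least 1.5-fold lower with butyrate. Myoglobin (Mb), the oxygen store of oxidative fibres, had levels of 7.50, 7.20, 7.54 and 4.52, a 7.89-fold difference from control. Fabp3 was at 6.03, 5.76, 5.97 and 4.08 (3.85-fold) and Cox8b, a muscle form of a cytochrome oxidase subunit, at 6.24, 6.22, 6.20 and 4.82 (2.69-fold). The 3 other pools of Cox8b spanned only 0.044. Muscle glycogen phosphorylase (Pygm) was at 6.22, 6.22, 6.56 and 5.01 and muscle creatine kinase (Ckm) at 6.16, 6.17, 6.36 and 4.96, which was 2.31-fold and 2.30-fold lower. Eno3, the muscle enolase, was at 7.38, 7.50, 7.69 and 6.67, 1.64-fold lower and above the floor throughout.

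The genes nearest the 1.5-fold mark were Myl2 (1.63-fold), Smpx (1.57-fold) and Myl3 (1.56-fold) on the inside and Mylpf (1.49-fold), Neb (1.46-fold) and Tcap (1.42-fold) on the outside. What was left in the butyrate pool ran from 11.3% of the control level for Myl1 to 90.4% for Csrp3. In the control pool 40 of the genes lay above the background mark and with butyrate 31. At or above the floor were 24 genes in control, 24 with acetate, 25 with propionate and 6 with butyrate. By the mean over all pools, 20 genes lay at or above the floor and 21 below it. Of the former 17 were at least 1.5-fold lower with butyrate (0.361% of all genes at or above the floor), with a median log2 ratio of -1.42. Of the latter 13 were, with a median of -0.70. With butyrate, 10 genes lay under the background mark: Mylpf, Mybpc2, Myl2, Ttn, Myot, Smpx, Casq1, Trdn, Pvalb and Fabp3. Their levels there cannot be told from background, and the folds given for them rest on such a level. With levels under the mark set to the mark, a choice made after the data had been seen, 26 of the 41 genes were at least 1.5-fold lower. The share of all genes was not counted at that setting. Fabp3 was then 3.67-fold, Pvalb 3.37-fold, Myot 2.83-fold and Ttn 2.53-fold lower. Mybpc2, Myl2, Casq1 and Smpx no longer reached 1.5-fold.

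Probe sets of 1 gene did not always give the same answer. Of the 41 genes, 37 had 1 probe set and 4 had more, which were averaged. The brighter of 2 Ckm probe sets had log2 levels of 7.88, 7.75, 8.22 and 5.46 in the control, acetate, propionate and butyrate pools, a 5.33-fold difference. The dimmer one stood at 4.45, 4.59, 4.50 and 4.46, without a difference. The averaged ratio of Ckm is therefore smaller than that of its responsive probe set. Ttn was alike, with 6.76, 6.72, 6.90 and 4.39 in one probe set (5.16-fold) and 4.22, 4.03, 4.06 and 3.73 in the other (1.40-fold). Both Fabp3 probe sets differed, by log2 ratios of -1.77 and -2.12. Of 19 Trdn probe sets 16 lay below control with butyrate, 8 of them by 1.5-fold, with log2 ratios from -1.60 to 0.29. Some of these 8 lay under the background mark already in control, such as that at 3.77, 4.50, 3.93 and 3.07. Another of them, at 5.27, 3.46, 5.17 and 3.67, was lowest with acetate.

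Genes that do the same work in other cells were compared with the muscle forms. Of 16 fixed pairs, 14 had both genes measured. In these the muscle gene was at least 1.5-fold lower with butyrate in 11, and the counterpart in none, nor was a counterpart higher by that fold. Over all genes 0.616% were lower and 0.728% higher. A count of none among 14 counterparts lies near those shares and is no result about them. The muscle genes had been chosen with these ratios known. The counterparts' log2 ratios ran from -0.094 to 0.43 with a median of 0.041, and the median of the muscle genes was -1.42. Non-muscle light chain Myl6, the partner of Myl1, was at 9.92, 9.94, 9.94 and 9.83. Cytoplasmic beta-actin (Actb) was at 12.69, 12.75, 12.77 and 12.74 beside Acta1, and the widely used calcium pump Atp2a2 at 11.03, 11.03, 10.76 and 10.97 beside Atp2a1. Liver glycogen phosphorylase (Pygl) stood at 10.41, 10.31, 10.35 and 10.33, liver fatty acid binding protein (Fabp1) at 12.51, 12.52, 12.52 and 12.53 and the common oxidase subunit Cox8a at 11.04, 11.02, 11.02 and 11.08. The widest ratios were those of vimentin (Vim) at 9.48, 9.89, 9.82 and 9.91 and brain-type creatine kinase (Ckb) at 6.98, 7.15, 7.25 and 7.35, both higher with butyrate than in control.

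**Figure D3:**
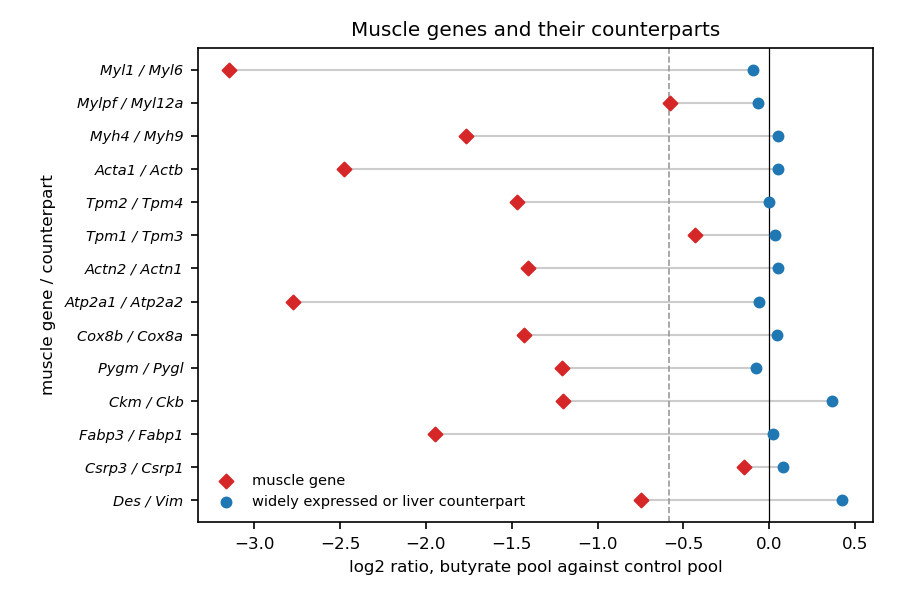
Log2 ratio of the butyrate pool against the control pool for 14 muscle genes (red diamonds) and the widely expressed or liver gene with the same kind of function (blue circles), 1 row per pair; the dashed line marks 1.5-fold lower. The counterparts lie between -0.094 and 0.43, and 11 of the muscle genes lie left of the dashed line.

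Beyond the 41 genes, a list of 50 further skeletal muscle genes was examined, of which 44 were measured. With butyrate 9 were at least 1.5-fold below control (all genes 0.616%) and none above (all genes 0.728%). The median log2 ratio was -0.26, and 34 were lowest in the butyrate pool (all genes 26.8%). Only 4 had a mean at or above the floor. In control 32 of the 44 lay above the background mark, among them all 9 of the lower genes and 26 of the 34. The 12 others had little room to be lower, so these counts say nothing about them. The largest ratios belonged to the actin-binding repeat protein Xirp2 (4.95, 5.48, 4.93 and 3.55), the calcineurin-binding Myoz2 (4.84, 4.48, 5.07 and 3.45), the small heat shock protein Hspb7 (5.28, 5.68, 5.30 and 4.14), tropomodulin Tmod4 (5.27, 5.14, 5.51 and 4.14) and the mitochondrial creatine kinase of muscle, Ckmt2 (5.19, 5.23, 5.48 and 4.08). Xirp2 and Hspb7 were highest with acetate and the other 3 with propionate, and all 5 lay under the background mark with butyrate. With acetate 1 gene of this list was at least 1.5-fold higher, Xirp1 (log2 ratio 0.63), and with propionate 1, Asb2 (0.69), both named after their values were seen. Over all genes 0.696% were higher with acetate and 0.776% with propionate.

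Across all 18820 genes, 41 lay at least 1.5-fold lower with butyrate than in each of the other pools (0.218%). Of these, 27 were among the muscle genes described here and 7 more were in the list of further muscle genes (Xirp2, Hspb7, Ckmt2, Myoz2, Tmod4, Srl and Cox7a1). The remaining 7, named after their values were seen, were Ak1, Elovl7, Pdk4, Tmem182, Ccdc152, Psg28 and Slc25a4. Adenylate kinase Ak1 (5.70, 5.53, 5.64 and 4.78) and the adenine nucleotide carrier Slc25a4 (6.86, 6.94, 6.96 and 6.27) serve energy transfer and are abundant in muscle. Pdk4, the kinase that switches off pyruvate dehydrogenase in muscle and liver, was at 8.12, 8.80, 8.12 and 7.40, highest with acetate. Elovl7, a fatty acid elongase, was at 4.72, 5.42, 4.86 and 3.99, and Tmem182 at 4.89, 4.87, 5.22 and 4.18. With butyrate Elovl7 lay under the background mark. Ccdc152 and Psg28 lay below the background mark in all pools.

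For the next choice, predicted genes, olfactory and vomeronasal receptor genes, small RNA genes and genes with accession-like names were left out. Among the remaining genes outside the 41 and at or above the floor, the 12 with the largest distance between butyrate and the lowest other pool were taken. Their distances were 0.41 to 0.72. They were Pdk4, Slc25a4, the oxidase subunit Cox7a1, Frmd6, the TWEAK receptor Tnfrsf12a, cyclin D1 (Ccnd1), Dhrs9, Ofd1, Derl3, Hes6, Cyp2b9 and Amotl1. In Slc25a4, Cox7a1 (6.49, 6.50, 6.62 and 5.90), Hes6 (8.43, 8.48, 8.46 and 8.02) and Amotl1 (6.74, 6.66, 6.73 and 6.25) the control, acetate and propionate pools lay within 0.12 of one another and butyrate apart. Hes6, a transcriptional regulator, and Amotl1, a junction protein, are in none of the muscle lists. In Dhrs9, Derl3 and Cyp2b9 the range of those pools, 1.03 to 2.82, exceeded the distance to butyrate.

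The listed markers of the other kinds of muscle and of muscle precursors differed by less than 1.5-fold between butyrate and control. Few of all genes passed that fold (0.616% lower and 0.728% higher). Of 10 measured myogenic regulators and precursor genes, none had a mean at or above the floor and none differed by 1.5-fold with any acid. Myogenin (Myog) was at 4.46, 4.34, 4.31 and 4.25, the cadherin Cdh15 at 4.10, 4.19, 4.17 and 4.28 and the stem cell factor Pax7 at 4.67, 4.79, 4.87 and 4.54. Of 11 heart genes none differed by 1.5-fold with butyrate (median log2 ratio -0.054). The largest ratio was that of the cardiac actin Actc1 (5.30, 5.13, 5.60 and 4.89), which young and regenerating skeletal muscle also makes, and cardiac troponin Tnni3 was at 4.52, 4.55, 4.61 and 4.21. The cardiac calsequestrin Casq2 was at 3.30, 3.77, 3.51 and 3.09. Of 8 smooth muscle genes none differed by 1.5-fold with butyrate (median -0.14), with smooth muscle actin Acta2 at 6.71, 7.20, 6.60 and 6.39 and Tagln at 5.92, 5.93, 5.78 and 5.61.

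Markers of other tissues moved between the same pools. All 7 measured adipocyte genes were lowest with butyrate (all genes 26.8%), 2 of them at least 1.5-fold below control (all genes 0.616%). Their median log2 ratio was -0.21. Their mean level was 5.81, 6.03, 5.62 and 5.39 in the control, acetate, propionate and butyrate pools. Resistin (Retn) was at 5.70, 5.71, 4.86 and 4.61 and adiponectin (Adipoq) at 4.73, 4.58, 4.13 and 3.99. These 2 were at least 1.5-fold below control with propionate as well (all genes 0.489%), where no muscle gene was. Adipoq lay under the background mark with propionate and butyrate. Of the 7 adipocyte genes, 4 were below control with propionate and 3 above. Of 12 intestinal epithelial genes, 4 were at least 1.5-fold higher with butyrate (all genes 0.728%) and none lower (all genes 0.616%). Their mean levels were 5.84, 5.82, 5.79 and 6.76. The mucin Muc2 was at 5.13, 5.22, 4.92 and 8.11 and Lypd8 at 5.64, 5.77, 5.48 and 8.61. The 10 pancreatic acinar genes were all highest in control and second highest with butyrate, with mean levels of 9.83, 8.94, 9.18 and 9.47. Their median log2 ratio of butyrate against control was -0.36. The 4 measured genes of nerve and Schwann cells had a median log2 ratio of 0.15. The part of any of these cells in the muscle gene values was not tested.

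**Figure D4:**
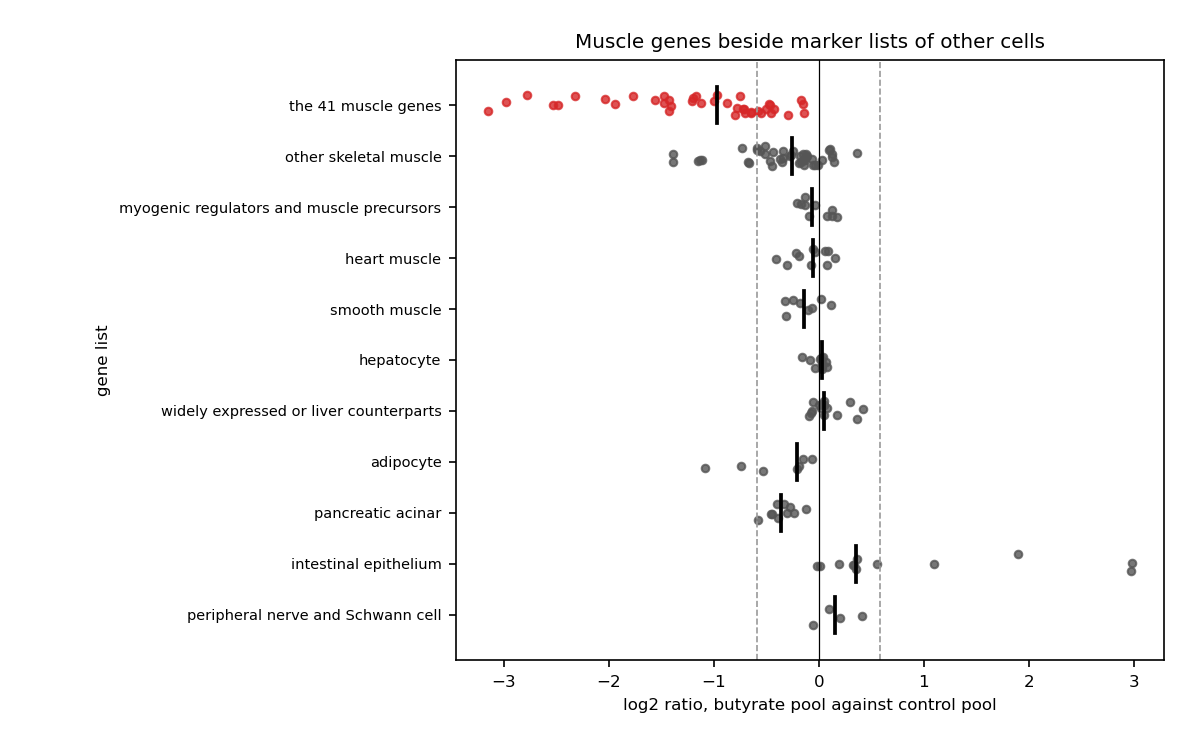
Log2 ratio of the butyrate pool against the control pool for the 41 muscle genes (red) and for 10 marker lists (grey), 1 point per gene, with each list's median as a black bar and 1.5-fold as dashed lines. The 41 genes have a median of -0.97 and the further muscle genes of -0.26. The medians of hepatocyte, heart and precursor genes are 0.029, -0.054 and -0.065. Those of pancreatic, adipocyte and smooth muscle genes are -0.36, -0.21 and -0.14. Those of intestinal, nerve and counterpart genes are 0.36, 0.15 and 0.048. No precursor gene and only 2 heart genes have a mean at or above the floor.

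The labels name no muscle tissue. With 1 pool per group, the infused acid and the mice of the pool cannot be told apart. Whether muscle RNA was carried into the pools with the liver, and in what amount, was not tested.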

How the data were processed

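Liver RNA of 22 mice was measured as 4 pools on 1 biotin-labelled whole-transcript array each. Pooling used 500 ng per mouse, from RNA with an integrity number above 8, and 100 ng was converted to cDNA, as stated in the labels. The deposited log2 values are per probe set, and RMA, which makes the arrays' distributions alike, is named in the submitters' processing notes, without settings. A change common to most genes of a pool would therefore not be seen. Gene symbols came from the platform annotation in GEO. Of 35556 probe sets, 21218 had 1 symbol, 1881 several and 12457 none. Those with 1 symbol were averaged per symbol (Python 3.11.15, pandas 2.3.3). Lists were matched through RefSeq synonyms for 2 genes. Each comparison is the log2 ratio of 2 arrays, called at 1.5-fold, with no test. The number of arrays limits the precision. Named genes were all 41 members, up to 5 per other list by absolute butyrate ratio, the fixed pairs, and the 12 lowest genes outside. From those outside, predicted, olfactory, vomeronasal, small RNA and accession-like names had been left out. The members, lists and rules were chosen with earlier results of these data known. The code that counts genes past the fold was tested on simulated data, which says nothing of the error of a ratio. Alternatives were cyclic loess (limma 3.58.1), centring, probe set choice, reference, level filter and fold. RMA's version and background settings are not given in those notes.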

Additional observations from a re-analysis of the deposited data

How the results depend on the processing

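No paired analysis was possible because each group has 1 array and the labels give no replicate numbers. For the same reason no array could be left out. A ratio was taken as moved when it changed by more than its SD over olfactory and vomeronasal genes (0.16 to 0.18 on the log2 scale). With the mean of 3 pools as the reference in place of control, which for acetate and propionate includes butyrate, 8 muscle genes were at least 1.5-fold higher with acetate and 17 with propionate, and the medians became 0.32 and 0.48. With muscle genes at or above the floor, 20 in all, 17 were lower with butyrate (0.361% of all genes there) and the median was -1.42. Of these muscle genes, 17 were at least 1.5-fold below each other pool, against 20 of all 9410 genes at or above the floor. With probe sets of several symbols added, 1 muscle gene, Tnnc2, was higher with propionate (0.73). The count lower with butyrate was 30 under cyclic loess, 31 with centring, 29 above the background mark, 20 at 2-fold, 27 with genes of 1 probe set and 26 with levels under the mark set to it, the last 2 added after the data had been seen. Apart from the floor setting, the shares of all genes were not counted under these alternatives, so their counts have nothing to be set against. Of 1977 ratios of single genes under the alternatives, 148 moved, 141 of them with the mean of 3 pools as the reference. The level filters leave the ratio of a single gene unchanged, and centring shifts all ratios of a pool alike. Many of the 1977 could therefore not move, and the count is no measure of robustness. A call was taken as reversed only where its ratio changed sign, which 0 did. Tnnc2, at -0.17 with the added probe set, lost its call without being counted.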

Other observations

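Genes below the level floor but above the background mark in control were ranked by the distance between the butyrate pool and the lowest other pool. Genes in any list, and predicted, olfactory, vomeronasal, small RNA and accession-like names, were left out. The 12 with the largest distance were taken, a choice made after the data had been seen. The mark in control leaves out Ccdc152 and Psg28, whose distances of 0.69 and 0.63 fall in the same range. The 12 were Ak1, Elovl7, Tmem182, Shh, Eef1a2, Ucp3, Timp1, Angptl7, Slc2a4, Glipr2, Sprr3 and Cap2. For Sprr3 the range of the control, acetate and propionate pools, 0.90, exceeded the distance of 0.46. Some of the 12 are abundant in muscle. The translation elongation factor Eef1a2, the form used by muscle and neurons, was at log2 levels of 5.59, 5.53, 5.60 and 4.96 in the control, acetate, propionate and butyrate pools. The mitochondrial carrier Ucp3 was at 4.41, 4.46, 4.40 and 3.85. The insulin-responsive glucose transporter Slc2a4, of muscle and fat, was at 5.24, 5.02, 5.35 and 4.55. Cap2, an actin regulator of muscle, was at 4.42, 4.66, 4.55 and 3.96. Others in the list are not known as muscle genes, among them Timp1 (4.26, 4.75, 4.63 and 3.76) and Shh (4.31, 4.35, 4.38 and 3.73). The 12 distances ran from 0.46 to 0.75. With butyrate Elovl7, Shh, Ucp3, Timp1, Sprr3 and Cap2 lay under the background mark, and their distances rest on such levels.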
